A study of Danio rerio with 4 samples.

Results

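The genes described here belong to the myeloid lineage, the branch of blood that gives macrophages and neutrophils, and were chosen by gene symbol: spi1b, cebpa, cebpb, irf8, lcp1, coro1a, mpx, mpeg1.1, lyz and ctss2.1. Of these 10 symbols, 9 were found among the 32057 gene rows of the deposited table, on 11 rows. The symbol mpeg1.1 corresponded to 3 rows that the gene name table calls mpeg1 without a copy number, and no row carried the name mpx, for which no value is given. Rows named epx (ENSDARG00000012535 and ENSDARG00000019521) were at 0.04 TPM or less in each library, and whether either is mpx was not tested. The row used for spi1b is named spi1, beside a separate row for spi1a.

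Poly-A RNA of whole zebrafish embryos was sequenced in 4 libraries, 2 of each genotype. Quadruple mutants were mdm2-/-; puma-/-; noxa-/-; p21-/-, and the sibling controls were mdm2+/- (or mdm2+/+); puma-/-; noxa-/-; p21-/-, so that loss of puma, noxa and p21 was common to both and loss of mdm2 separated them. Mdm2 is the ubiquitin ligase that holds p53 in check. Mutant libraries are also titled abnormal and control libraries normal, and genotype cannot be told apart from that sorting; the controls may mix mdm2+/- and mdm2+/+ embryos. Titles give an age of 18 hours post-fertilization (hpf) and the tissue label gives 30 hpf, a gap in age that matters for genes switched on as myeloid cells mature. Values are TPM, transcript abundance per transcript length brought to a common sum in every library, so depth is unknown and levels can be set side by side between genes. As a check on the groups, mdm2 stood at 1634 and 1819 TPM in the mutants and at 81.9 and 85.1 TPM in the controls, which does not test the alleles, since reads from a mutated copy can be counted too.

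In the zebrafish embryo the first myeloid cells arise from lateral mesoderm under the transcription factor Pu.1, encoded by spi1b, which opposes the erythroid factor Gata1. Irf8 then favours macrophages over neutrophils, and C/EBP factors drive granule and inflammatory genes. C/EBP factors also act outside blood, in liver, skin and other epithelia. Maturing cells turn on the actin regulators lcp1 and coro1a and effector genes such as lyz, mpx and mpeg1, which are used as markers of neutrophils and macrophages. In whole-embryo libraries, fewer cells of a type and less RNA per cell cannot be told apart.

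The members did not move as a block. Transcripts of spi1b, coro1a, ctss2.1 and 1 mpeg1 copy were lower in the quadruple mutants, those of cebpa and cebpb were higher, and irf8 and lcp1 did not pass the test. The test was limma on log2(TPM + 1), for genes that reached 1 TPM in 2 or more libraries, and 8 of the 11 member rows met this filter. In this test 65.6% of 16172 genes were called at an adjusted p under 0.05, 28.0% higher and 37.7% lower, against 2 and 4 of the 8 member rows. Of these rows coro1a and the mpeg1 copy met the filter through the controls alone and had to differ, so the member counts are read no further.

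**Figure D1:**
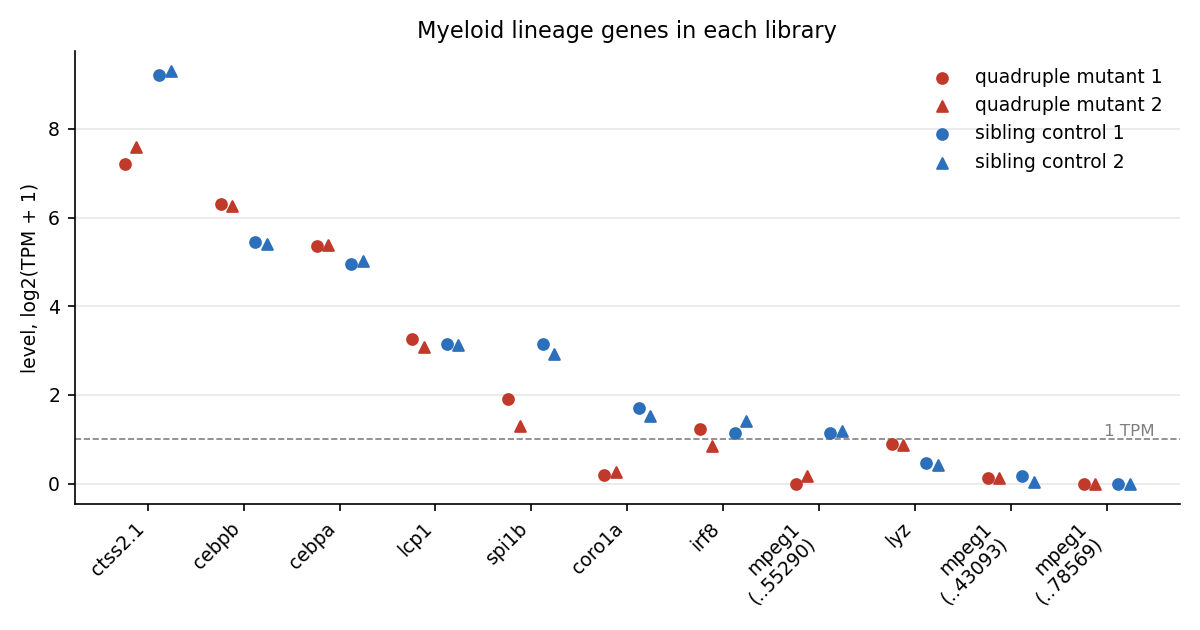
Level of each myeloid gene row in each library, as log2(TPM + 1), in order of level; circles and triangles are replicates 1 and 2, red the quadruple mutants and blue the sibling controls, and mpeg1 rows are marked by the end of their identifier. The spi1b, coro1a and ctss2.1 points of the mutants sit below those of the controls, the cebpa and cebpb points sit above, and the irf8 and lcp1 points overlap.

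spi1b (ENSDARG00000000767), the Pu.1 gene at the head of the lineage, was at 2.73 and 1.46 TPM in the quadruple mutants and at 7.86 and 6.54 TPM in the controls. Both mutant values lay below both controls, and the mean of 7.20 ± 0.933 TPM in the controls was 3.44-fold that of the mutants (2.1 ± 0.898 TPM; SD, n = 2 per genotype). The log2 change was -1.43 (SE 0.217, 95% interval -1.96 to -0.90, limma adjusted p = 0.00183), lower than in all but 4.87% of the genes tested. With each library left out in turn it ran from -1.73 to -1.13 and passed each time, and with a pseudocount of 5 TPM it was -0.79. The mutant libraries differed from each other by 0.60 on the log2(TPM + 1) scale, which is more than the 0.23 between the controls.

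irf8 (ENSDARG00000056407), the factor for macrophage fate, was near the lower limit of the test in both genotypes. Its levels were 1.35 and 0.80 TPM in the mutants and 1.19 and 1.67 TPM in the controls. The genotypes overlapped, and the log2 change of -0.23 did not pass (SE 0.186, 95% interval -0.69 to 0.22, adjusted p = 0.308). The interval includes no change and a fall of the order of 0.69, so a moderate difference was not detectable with these libraries.

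The C/EBP members went the other way from spi1b. cebpb (ENSDARG00000042725), a factor of inflammatory and stress gene expression, was at 77.5 and 75.2 TPM in the mutants and at 42.4 and 41.3 TPM in the controls. It rose 1.82-fold, a log2 change of 0.85 (SE 0.061, 95% interval 0.70 to 1.00, adjusted p = 0.000103). cebpa (ENSDARG00000036074), known from mammals as the factor that granulocyte precursors require, was at 39.9 and 40.8 TPM in the mutants and at 30.0 and 31.2 TPM in the controls. The rise was smaller, 1.32-fold or 0.39 on the log2 scale (SE 0.067, 95% interval 0.22 to 0.55, adjusted p = 0.0031), with no overlap between genotypes. Within each library cebpb exceeded cebpa, by 1.94 and 1.84 times in the mutants and 1.41 and 1.32 times in the controls.

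Lists for skin and for the yolk syncytial layer, other tissues in which C/EBP genes can be expressed, had higher summed levels in the mutants. Of 19 epidermal and periderm genes tested 13 rose, 1 fell and 5 did not pass, beside 28.0% higher and 37.7% lower over all genes. Their summed level was 32978 and 31014 TPM in the mutants and 23620 and 23502 TPM in the controls. The largest rows were cyt1, at 7198 and 6514 against 5132 and 5069 TPM, and krt4, at 6531 and 6084 against 4937 and 4892 TPM. Both rose, and the skin sum depends strongly on such rows. Of 16 tested yolk layer genes 8 rose and 4 fell, and the other 4 did not reach the threshold. mxtx2, among the risers, met the filter through the mutants alone. This list had sums of 32420 and 32433 TPM in the mutants and 25563 and 25627 TPM in the controls. Its largest rows were the risers apoa1a, at 10123 and 9589 against 5928 and 6002 TPM, and apoa1b, at 8581 and 8365 against 6814 and 7123 TPM. The sums therefore depend strongly on these rows, and 4 genes of the list fell. None of either list was at 0 in every library, and the part of these tissues in the cebpa and cebpb values was not tested. The skin list was led by anxa1 (ENSDARG00000026726), an annexin gene, at 2.71 on the log2 scale, and cldni, a claudin gene, at 1.61. Its exception was tp63, a basal keratinocyte factor, which fell by 0.34 (adjusted p = 0.0089) and did not pass without control replicate 1 (adjusted p = 0.0871). In the yolk layer list rbp4, a retinol carrier, rose by 1.21 and apoa1a, an apolipoprotein gene, by 0.72, while serpina1l fell by 0.84 and apoa4b.1 by 0.80.

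**Figure D2:**
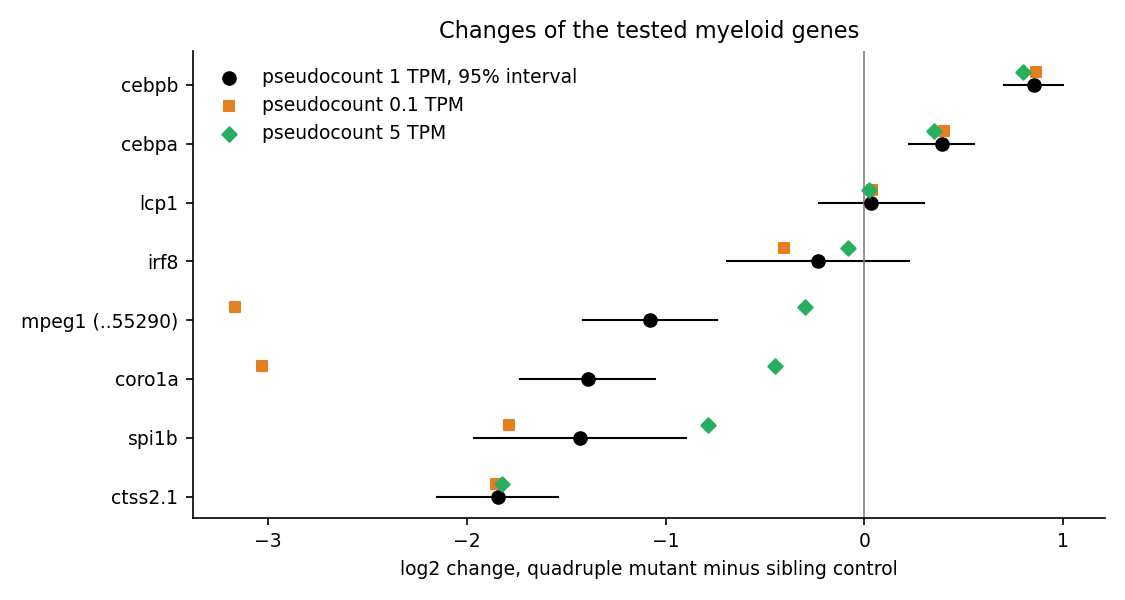
Log2 change (quadruple mutant minus sibling control, horizontal axis) of the 8 tested rows; black points with lines are the limma estimate and 95% interval with a pseudocount of 1 TPM, squares and diamonds the estimates with 0.1 and 5 TPM. The estimates for ctss2.1, cebpa, cebpb and lcp1 hardly move with the pseudocount, whereas coro1a ranges from -3.03 to -0.45 and mpeg1 from -3.17 to -0.30.

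The cytoskeletal members, both widely used as leukocyte markers, gave unlike results. lcp1 (ENSDARG00000023188), the actin-bundling protein L-plastin, was at 8.62 and 7.51 TPM in the mutants and at 7.92 and 7.74 TPM in the controls. The controls lay between the mutants, and the log2 change was 0.04 (SE 0.107, 95% interval -0.23 to 0.30, adjusted p = 0.789). coro1a (ENSDARG00000054610), an actin-binding coronin of leukocytes, was at 0.14 and 0.19 TPM in the mutants and at 2.26 and 1.87 TPM in the controls. Its mean was 12.5-fold higher in the controls, and the log2 change on the compressed log2(TPM + 1) scale was -1.39 (SE 0.138, 95% interval -1.73 to -1.05, adjusted p = 0.000336). Because the mutant values are close to 0 and depth is unknown, the size of the fold is uncertain. coro1a met the filter through the controls alone and had to fall, so its call is read no further. With a pseudocount of 0.1 TPM the log2 change was -3.03, and with 5 TPM it was -0.45. The level of lcp1 relative to coro1a was 61.6 and 39.5 in the mutants and 3.50 and 4.14 in the controls. This ratio carries the limits of the coro1a values and is read no further. Relative to spi1b, lcp1 was at 3.16 and 5.14 in the mutants and 1.01 and 1.18 in the controls.

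Among the effector genes, ctss2.1 (ENSDARG00000074656), which encodes a cathepsin S, a lysosomal protease of phagocytes and antigen-presenting cells in mammals, was by far the most abundant. It was at 148 and 193 TPM in the quadruple mutants and at 592 and 628 TPM in the controls, a level above that of 99.1% of the genes with any value in the control libraries. The control mean of 609.8 ± 25.7 TPM was 3.58-fold the mutant mean of 170.3 ± 32.3 TPM, and the log2 change of -1.85 was lower than in all but 2.09% of genes tested (SE 0.124, 95% interval -2.15 to -1.54, adjusted p = 8.37e-05). It ranged from -2.04 to -1.65 with each library left out in turn. Its level was 13.9 and 15.2 times that of cebpb in the controls and 1.90 and 2.57 times in the mutants. In the controls the leukocyte marker coro1a was at 2.26 and 1.87 TPM and lyz at 0.37 and 0.33 TPM. Whole-embryo libraries do not show which cells gave the ctss2.1 reads, and a source outside the myeloid lineage was not tested. Other cathepsin S copies were far lower: ctss2.2, at 4.35 and 2.80 TPM in the mutants and 3.93 and 6.62 TPM in the controls, did not pass (adjusted p = 0.175; 0.0467 without control replicate 1), and ctss1 was at most 0.21 TPM. How reads common to these copies were divided was not given in the sources used here.

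The markers of mature macrophages and neutrophils were near or below the test's lower limit. mpeg1 codes for a pore-forming protein of macrophages. The copy ENSDARG00000055290 was listed at 0 and 0.12 TPM in the mutants and at 1.2 and 1.27 TPM in the controls. Its log2 change was -1.08 (SE 0.138, 95% interval -1.42 to -0.74, limma adjusted p = 0.00092), and -3.17 and -0.30 with pseudocounts of 0.1 and 5 TPM. No fold is given against a listed 0. This copy met the filter through the controls alone and had to fall, so its call is read no further. Copy ENSDARG00000043093 ranged from 0.02 to 0.13 TPM and copy ENSDARG00000078569 was listed at 0 in each library. lyz (ENSDARG00000057789), the lysozyme gene of neutrophils and early macrophages, had higher values in the mutants. It stood at 0.86 and 0.82 TPM in the mutants and at 0.37 and 0.33 TPM in the controls, below the filter in each library. Without the filter its log2 change was 0.45 (SE 0.080, limma adjusted p = 0.012), where 18.8% of 24455 genes were called higher and 26.1% lower. In that fit coro1a changed by -1.39 (SE 0.113, limma adjusted p = 0.00136). The mpeg1 copy ENSDARG00000055290 changed by -1.08 there (SE 0.095, limma adjusted p = 0.00165).

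In order of control level the members ran ctss2.1, cebpb, cebpa, lcp1, spi1b, coro1a, irf8, mpeg1 (ENSDARG00000055290) and lyz. The neighbours lcp1 and spi1b overlapped in the controls, at 7.92 and 7.74 against 7.86 and 6.54 TPM, as did no other neighbours except irf8 and the mpeg1 copy, at 1.19 and 1.67 against 1.2 and 1.27 TPM. In the mutants cebpa, lcp1 and spi1b kept their relative order, lyz stood above coro1a and mpeg1, and irf8 overlapped lyz.

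**Figure D3:**
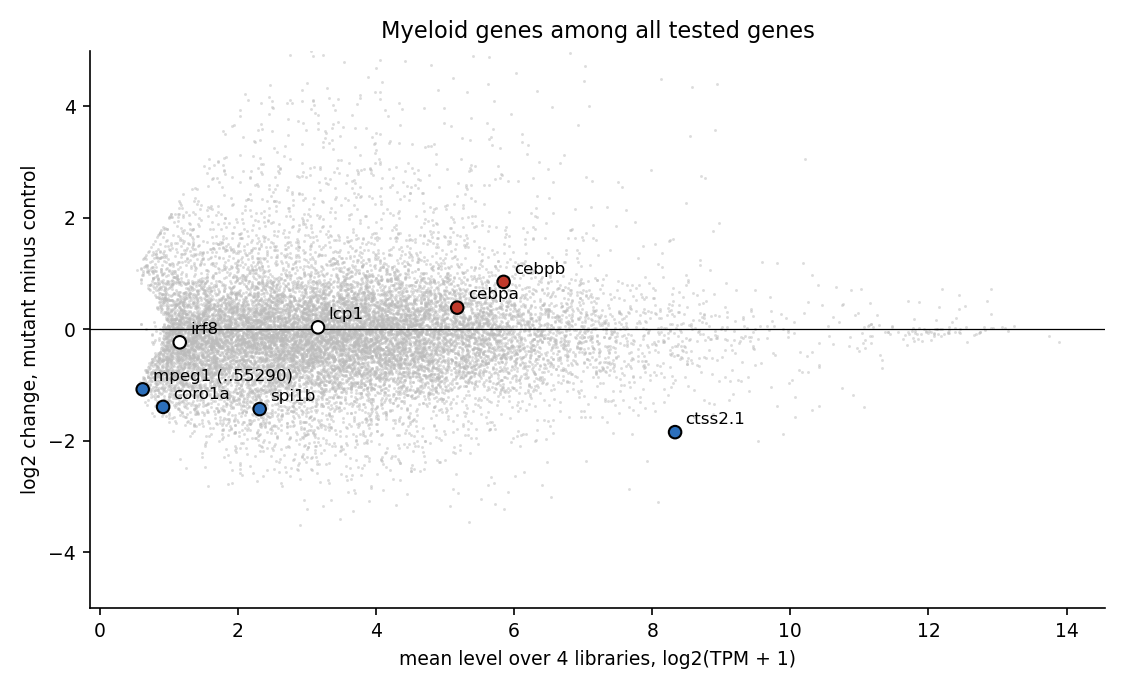
Log2 change (vertical axis, quadruple mutant minus sibling control) against mean log2(TPM + 1) over the 4 libraries for the tested genes in grey, with myeloid genes in red (higher), blue (lower) or white (not passed); 20 genes lie beyond the vertical axis. ctss2.1 lies at the lower edge among genes of its level, at -1.85, while cebpa and cebpb lie within the main body of points.

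With 2 libraries a genotype, the lowest p that an exact permutation test allows is 0.333, and the calls depend on limma pooling the spread over genes. The genotypes did not overlap in 6 of the 8 tested member rows, beside 83.3% of genes tested. Among the 6, coro1a and the mpeg1 copy met the filter through the controls alone and could not overlap, so this count is read no further. The labels do not say whether replicate libraries are separate clutches, and the p-values therefore measure sample spread that may be no more than technical. Over all genes tested the median log2 change was -0.10, and it was 0.02 under median ratio scaling, which left each member's call as it was. Across tested genes, replicate libraries correlated at r = 0.991 (mutants) and 0.993 (controls), and libraries of unlike genotype at 0.878 to 0.890. The number of genes at 1 TPM or more was 15242 to 15584 per library.

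Further leukocyte genes came from a list of pan-leukocyte signalling and cytoskeletal genes. Of 23 rows 6 were tested, 5 fell, 0 rose and rac2 did not pass (median log2 change -0.65), beside 37.7% lower and a median of -0.10 over all genes. Of the 5, btk and plcg2 were under 1 TPM in both mutants, met the filter through the controls alone and had to differ, so the count and median are read no further. btk, a tyrosine kinase of blood cells, was at 0.59 and 0.47 TPM in the mutants and at 2.26 and 2.21 TPM in the controls (log2 change -1.08, SE 0.128, adjusted p = 0.000678). arpc1b, the Arp2/3 subunit typical of blood cells, was at 1.93 and 1.34 against 5.11 and 5.41 TPM (-1.26, SE 0.149). The coronin gene coro1b fell by 0.77 and the actin regulator gene hcls1 by 0.53. hcls1 did not pass without either control (adjusted p = 0.0757 for both). plcg2, a phospholipase, was at the edge of the test (-0.45, adjusted p = 0.0492) and did not pass in 7 alternatives, among them both other pseudocounts and scalings, with adjusted p from 0.0543 to 0.143. rac2, a GTPase of phagocytes, was at 12.5 and 11.4 against 14.5 and 12.3 TPM (-0.15, adjusted p = 0.28).

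Most of the list lay under the filter, and several of these genes were low in the mutants as well. The integrin gene itgb2 was at 0.03 and 0.02 TPM in the mutants and at 0.35 and 0.63 TPM in the controls. The Src family kinase gene hck was at 0.04 and 0.08 against 0.51 and 0.69 TPM, and its relative lyn at 0.01 and 0.03 against 0.27 and 0.39 TPM. In the phosphatase gene ptpn6 the values were 0.30 and 0 against 0.87 and 0.93 TPM, and in the adaptor gene lcp2a 0.02 and 0.05 against 0.35 and 0.26 TPM. These genes were chosen after their values were seen. Of the 15 untested rows with any value, 7 had both mutants below both controls and 3 had both above, beside 28.1% and 18.2% of the 8283 genes under the filter. The 3 included tyrobp, an adaptor of myeloid receptors, at 0.72 and 1.42 against 0.16 and 0.07 TPM. The others were wasb (listed as was), at 0.85 and 0.52 against 0.30 and 0.47 TPM, and laptm5, at 0.28 and 0.16 against 0.14 and 0.06 TPM. ptprc, which encodes the leukocyte antigen CD45, was at most 0.09 TPM, and fcer1g and itgae.1 were listed at 0 throughout. The summed level of the list was 22.4 and 21.7 TPM in the mutants and 35.6 and 33.8 TPM in the controls.

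**Figure D4:**
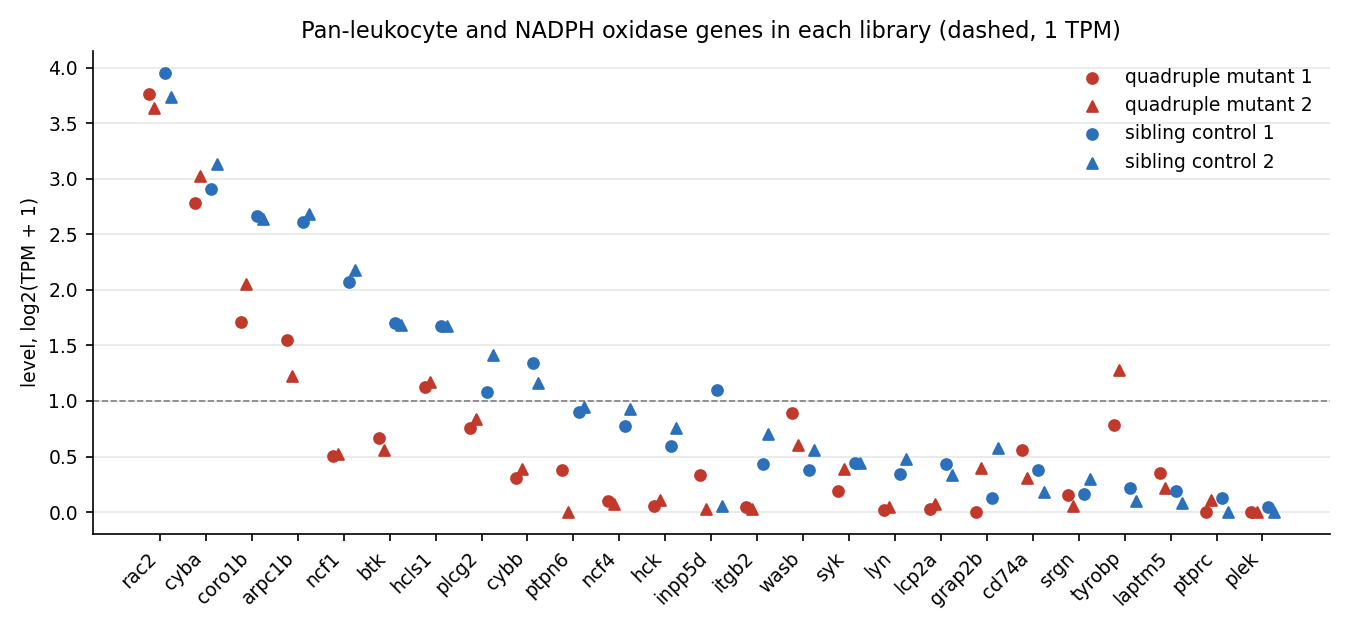
Level of pan-leukocyte and NADPH oxidase genes in each library, as log2(TPM + 1), in order of mean control level; circles and triangles are replicates 1 and 2, red the quadruple mutants and blue the sibling controls. The mutant points of ncf1, btk, arpc1b, hck and ncf4 lie below the controls, those of rac2 and cyba overlap them, and those of tyrobp, wasb and laptm5 lie above.

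The phagocyte NADPH oxidase makes the superoxide burst with which neutrophils and macrophages kill microbes. ncf1, which encodes its organizer p47phox, was at 0.42 and 0.44 TPM in the mutants and at 3.19 and 3.53 TPM in the controls (log2 change -1.61, SE 0.126, adjusted p = 0.000144). cybb, which encodes the catalytic subunit, was at 0.24 and 0.31 against 1.53 and 1.24 TPM (-0.90, SE 0.139, adjusted p = 0.00196). Both met the filter through the controls alone, and their estimates were -2.71 and -1.98 with a pseudocount of 0.1 TPM. cyba, the partner subunit that many tissues express, overlapped between genotypes at 5.89 and 7.15 against 6.53 and 7.79 TPM and did not pass (-0.12, adjusted p = 0.475). ncf4, a regulatory subunit gene under the filter, was at 0.07 and 0.05 against 0.71 and 0.90 TPM.

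Growth factors and receptors of the lineage changed in both directions. Of 10 tested rows 4 rose, 3 fell and 3 did not pass (median 0.04), beside 28.0% higher and 37.7% lower over all genes. csf1a and il34 encode the alternative ligands of the macrophage receptor Csf1r. csf1a was at 14.2 and 16.1 TPM in the mutants and at 0.50 and 0.58 TPM in the controls (log2 change 3.39, SE 0.122, adjusted p = 1.09e-05); it met the filter through the mutants alone and had to differ. il34 was at 11.7 and 13.0 against 1.29 and 1.17 TPM (2.58, SE 0.116, adjusted p = 2.26e-05). With a pseudocount of 5 TPM these changes were 1.86 and 1.48. csf3a, a granulocyte growth factor gene, rose by 0.73 and il6st, the shared receptor subunit gp130, by 1.60, and no other tested gene of the list rose. The receptors csf1ra and csf1rb were at most 0.14 TPM in each library, and the granulocyte receptor csf3r was at 0.29 and 0.14 TPM against 0.78 and 0.69 TPM, all below the filter. Those that fell were 2 cxcr4 copies (ENSDARG00000057633, -1.70; ENSDARG00000041959, -1.55) and their ligand gene cxcl12 (ENSDARG00000037116, -1.22), which guide many migrating cells. The others were kit (ENSDARG00000043317; 0.04), kitlga (0.04) and kitlgb (-0.35).

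Transcription factors that act before or beside spi1b were split. Of 20 tested, 9 rose, 5 fell and 6 did not pass (median 0.22), beside 28.0% higher and 37.7% lower over all genes. Of the factors with roles in blood and vessel progenitors, etv2 (listed as etsrp) stood at 157 and 148 TPM in the mutants and at 46.7 and 49.7 TPM in the controls (log2 change 1.64, SE 0.064, adjusted p = 1.43e-05). lmo2 rose by 1.36, tal1 by 1.22 and gata2 (ENSDARG00000059327) by 1.43, while fli1 (ENSDARG00000054632) did not pass (0.06, adjusted p = 0.573). Of further C/EBP genes, cebpd was at 52.3 and 54.4 against 25.4 and 23.0 TPM (1.11, SE 0.077) and cebpg rose by 0.51, while the neutrophil factor cebp1 was at most 0.57 TPM. The remaining risers were npas4l (1.53), klf6 (ENSDARG00000029072, 0.94) and irf5 (0.71). The factors that fell were ikzf1 (-1.05), a lymphoid and myeloid factor, myb (-0.65), a factor of blood progenitors, mafb (ENSDARG00000017121, -0.57) and mafbb (-0.54), used in macrophages and in the hindbrain, and egr2 (ENSDARG00000042826, -0.35), which has hindbrain and myeloid roles. egr2 did not pass under median ratio scaling (adjusted p = 0.0606) or without control replicate 2 (adjusted p = 0.109). runx1, which marks definitive blood, was at 0.93 and 0.84 against 1.41 and 1.13 TPM and did not pass (-0.27, limma adjusted p = 0.134). It met the filter through the controls alone, so its direction was fixed. spi1a, the other Pu.1 copy, was at 0.09 and 0.02 against 0.45 and 0.28 TPM, below the filter.

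Genes listed as macrophage markers include several that other cells also use. Of 12 tested rows 7 rose, 2 fell and 3 did not pass (median 0.33), beside 28.0% higher and 37.7% lower over all genes. The lysosomal protease gene lgmn (legumain) was at 1349 and 1299 TPM in the mutants and at 57.0 and 58.9 TPM in the controls (log2 change 4.49, SE 0.051, adjusted p = 7.46e-07). The cathepsin genes ctsla (0.97) and ctsh (0.82) and apoeb (0.72), an apolipoprotein gene of yolk and microglia, also rose. The genes that fell were the cathepsin genes ctsk (-0.96) and ctsc (-0.47). Among the cathepsin rows of the members and this list, ctss2.1 was 1 of 3 that fell. In the same rows 4 rose, counting ctsb (ENSDARG00000055120, 0.25) and ctsd (0.31), while ctss2.2 did not pass (-0.44) and ctss1 was not tested. slc7a7, at 5.36 and 5.37 against 5.27 and 4.8 TPM, did not pass (0.08). Neither did cxcr3.2, at 1.78 and 1.34 against 0.86 and 1.19 TPM (0.34). The macrophage markers marco, tlr7, havcr1, p2ry12 and c1qc were under the filter and not tested. marco and tlr7 were listed at 0 in each library, havcr1 was at most 0.03 TPM, p2ry12 at most 0.25 TPM and c1qc at most 0.45 TPM. Of 10 untested rows with any value, 2 had both mutants below both controls, beside 28.1% of genes under the filter. In 1, lgals3bpb, at 0.35 and 0.34 against 0.15 and 0.18 TPM, both lay above, beside 18.2%. Summed levels of the list were 11016 and 11117 TPM in the mutants and 6229 and 6321 TPM in the controls, most of it apoeb.

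Of 22 neutrophil symbols 5 had no row of that name (lect2l, cxcr2, bpi, cpa5 and padi2). Among neutrophil genes 8 of 20 rows were tested, of which 6 rose, npsn fell and il6r did not pass (median 0.99), beside 28.0% higher and 37.7% lower over all genes. Of the 6, the lect2 copy ENSDARG00000090889, at 1.43 and 1.80 against 0.27 and 0.39 TPM, met the filter through the mutants alone and had to differ. npsn, which encodes the neutrophil protease nephrosin, was at 0.28 and 0.16 TPM in the mutants and at 1.27 and 1.06 TPM in the controls (log2 change -0.83, SE 0.140, adjusted p = 0.00292), and passed the filter through the controls alone. The riser with the lowest p was lect2 (ENSDARG00000033227), a secreted chemotactic protein gene that liver also makes, at 32.2 and 40.8 against 2.11 and 2.64 TPM (3.47, SE 0.146). The protease genes mmp9 (1.1) and adam8a (1.09) and the lipoxygenase gene alox5 (ENSDARG00000057273, 1.00) rose as well. The chemokine receptor cxcr1 was listed at no more than 0.05 TPM on both of its rows, and alox5ap and tnfa were listed at 0.

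**Figure D5:**
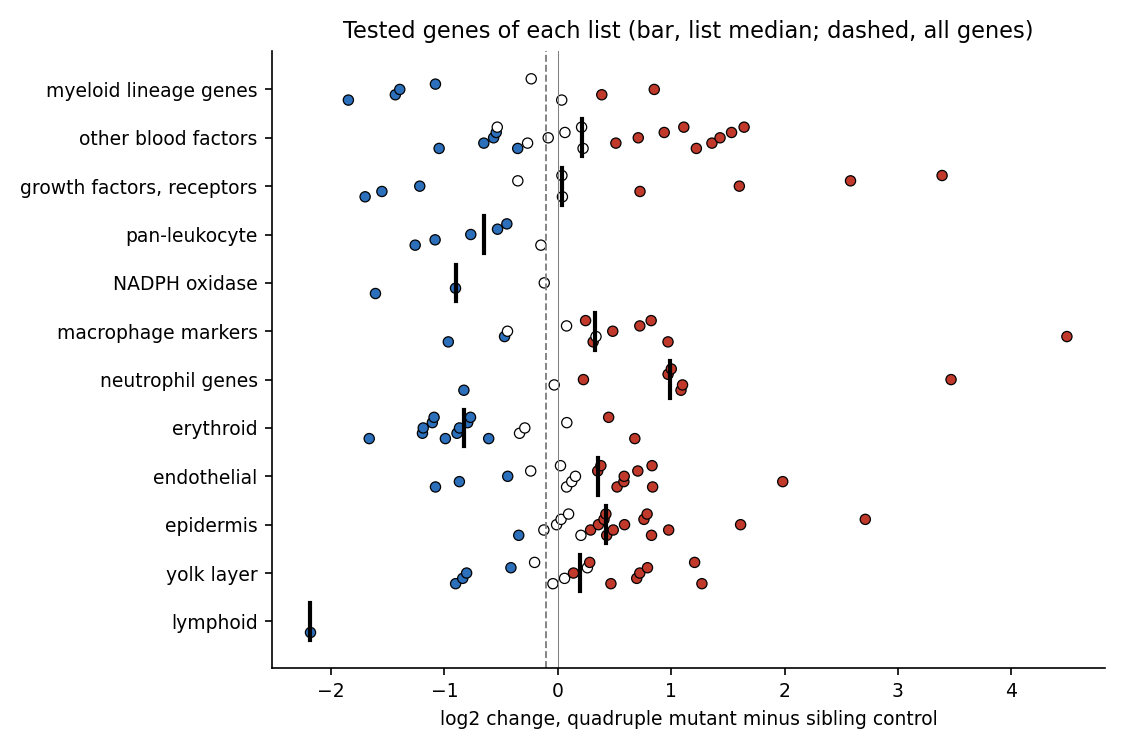
Log2 change (quadruple mutant minus sibling control) of each tested gene, by list; red, blue and white points were called higher, called lower or did not pass, black bars are list medians and the dashed line is the median of all tested genes at -0.10. The tested pan-leukocyte and oxidase genes lie to the left of 0, as do most erythroid genes, while the growth factor list spreads from -1.70 to 3.39. Of these, btk, plcg2, ncf1, cybb, slc4a1 (ENSDARG00000012881) and epb41b met the filter through the controls alone and had to fall. csf1a, at 3.39, met it through the mutants alone and had to rise.

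Other blood and vessel lists are given beside the myeloid genes as measures of neighbouring cell types. Of 16 tested erythroid genes 11 fell, 2 rose and 3 did not pass (median -0.83), beside 37.7% lower and 28.0% higher over all genes. Of the 11, slc4a1 (ENSDARG00000012881) and epb41b met the filter through the controls alone and had to differ. The summed level was 413.9 and 394.9 TPM in the mutants and 739.4 and 797.1 TPM in the controls. gata1a, the factor that opposes Pu.1, was at 2.76 and 3.08 against 7.43 and 8.51 TPM (log2 change -1.19, SE 0.121), lower in the mutants like spi1b. The globin genes hbbe3 (-1.66) and hbae3 (-1.11) and the heme synthesis gene alas2 (-1.09) fell, while the factor gene klf17 (0.68) and tspo (0.45) rose. Of 17 tested endothelial genes 9 rose, 3 fell and 5 did not pass (median 0.35, beside the same shares over all genes), with sox7 (1.98) and egfl7 (0.84) among the risers and tek (-1.08), ets1 (-0.87) and sox18 (-0.44) as those that fell. The risers erg and esam (ENSDARG00000077039) were close to the threshold (limma adjusted p = 0.0447 and 0.0451). With a replicate block 7 of 17 rose, and without the filter 7 of 18. tek, at 0.69 and 0.80 against 2.83 and 2.54 TPM, met the filter through the controls alone. sox18 did not pass without the filter (adjusted p = 0.0766), under median ratio (0.103) or quantile scaling (0.0922), or without mutant replicate 2 (0.121) or control replicate 2 (0.21). Of 13 lymphoid rows 12 were under the filter, and pax5, which also marks the midbrain-hindbrain boundary, fell by 2.18; cd4-1, cd8a, cd79a and cd79b were listed at 0. The part of these cell types in the myeloid values was not tested.

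Genes whose pattern over the 4 libraries was most like that of spi1b, lcp1 or cebpa were sought among 128 tested genes of the other lists. The measure was the Euclidean distance between log2(TPM + 1) values set against the control mean, and the other members were not compared in this way. The nearest to spi1b were arpc1b (distance 0.38), hbbe3 (0.53) and ncf1 (0.56). For lcp1 they were fli1 (ENSDARG00000054632; 0.06), kitlga (0.06) and kit (0.08), and for cebpa the keratin gene krt4 and the genes ctsd and fabp2, each at 0.11 to 0.12. With 2 genotypes these distances reflect mainly the size of the change. ncf1 met the filter through the controls alone and had to fall, so its place near spi1b is read no further.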

How the data were processed

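Per the labels' protocols, about 500 ng of total RNA per library was poly-A selected and sequenced as paired reads of 150 bp. The deposited values were TPM for 32057 Ensembl genes with 2 decimals. Per the submitters' processing notes, the build was GRCz11 and the tools included RSEM 1.3.3, STAR 2.7.3a and HTSeq 0.12.3; which of them made the TPM was not given in the sources used here. No count model, counting interval or detection floor was possible. Symbols came from a gene name table (28988 rows named), matched regardless of case, then without the copy letter, then by RefSeq synonym (GRCz12tu). Symbols with over 4 rows were left out, which removed mfap4 from the macrophage list.

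log2(TPM + 1) values of genes that reached 1 TPM in 2 or more libraries were fitted with limma 3.58.1 (R 4.3.3, variance trend), with Benjamini-Hochberg adjustment over all genes tested and a threshold of 0.05. The members, the 11 other lists and the rule for named genes (every member; of each list up to 4 with the lowest p and small groups of exceptions) were chosen with earlier results of these data known. A gene of the lists is not reported here. Python 3.11.15, pandas 2.3.3 and matplotlib 3.10.9 made tables and figures. The alternatives changed the pseudocount (0.1 or 5 TPM), the filter (none or 5 TPM), the scaling (quantile or median ratio) and the variance trend (none), added a replicate block, or left out each library in turn, the lone library then being assumed to vary like the other genotype.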

Additional observations from a re-analysis of the deposited data

How the results depend on the processing

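The 8 tested members kept their direction and side of the threshold in each alternative that could test them, except that the log2 change of lcp1, which never passed, was -0.05 without mutant replicate 1. In every fit that tested coro1a and mpeg1 (ENSDARG00000055290), save the unfiltered one, the filter fixed their direction. The 5 TPM filter did the same for spi1b, and the sameness of direction in these fits is read no further. With a filter of 5 TPM, 2 of 5 tested members were lower, as were 2 of 3 pan-leukocyte and 0 of 1 oxidase genes. Of these, spi1b, arpc1b and coro1b reached 5 TPM in the controls alone and had to fall, so these counts are read no further. Lower too were 0 of 5 neutrophil and 1 of 8 endothelial genes, and 5 of 8 endothelial genes were higher. Among the latter, cdh5 reached 5 TPM in the mutants alone and had to rise. Over all 11317 genes tested with this filter, 3559 were higher and 4609 lower. Without a filter, 3 of 10 member rows were higher and 4 lower. In that fit 5 of 15 growth factor or receptor genes, 9 of 21 pan-leukocyte genes and 2 of 17 neutrophil genes were lower. Of the 21 pan-leukocyte genes 1 was higher, and over all 24455 genes 4605 were higher and 6388 lower. plcg2, still tested with the same change, lost its call without the filter (adjusted p = 0.0744). With either control left out, coro1a, mpeg1 (ENSDARG00000055290), btk, plcg2, ncf1, cybb and npsn could not meet the filter, so fewer listed genes could be tested. List counts from fits that leave 1 library in a genotype are therefore not read. With a replicate block, 4457 genes were higher and 6062 lower beside 4522 and 6091, and 2 and 4 members. Same-numbered libraries deviated together only weakly (r = 0.0488 across genes), so the numbers were not taken as pairs. Depth is unknown, which limits values under 1 TPM most.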
